A study of Mus musculus with 2 samples.

Results

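The region described here is the stretch of mouse chromosome 12 around Esr2, the gene of oestrogen receptor β (ERβ), which is disrupted in the knock-out cells. It was taken as chr12:67249826-87249826 of the build NCBIM37 (mm9), 10 Mb on each side of a point inside the gene, and the interval chr12:77215000-77285000 with the gene itself (Esr2, minus strand, chr12:77221406-77278246) was left out. Of the 826937 cytosine positions covered in both libraries of the series, 34423 lay on chromosome 12 and 8375 in the flanks, on 7631 CpGs. Another 33 positions lay in the gene interval, and 26015 on the rest of the chromosome served for comparison. Methylation had been measured in mouse embryonic fibroblasts (MEFs) by RRBS, or reduced representation bisulfite sequencing, with 1 library of wildtype (wt) cells and 1 library of ESR2 -/- (βerko) cells. Both were labelled C57BL/6, with no treatment named and the same medium, and each was a pool of 3 DNA batches. The age and number of the embryos are not given in the labels. With 1 library for each genotype there was no spread between cultures to compare with, so a test on reads compares these 2 libraries and not the genotypes.

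Methyl groups on cytosines of CpG dinucleotides are copied to the new strand at each cell division, and their pattern differs between cell types. CpG-rich gene starts are as a rule unmethylated, whereas CpGs in gene bodies and between genes are mostly methylated. In RRBS the enzyme MspI cuts at CCGG, so that CpG-rich DNA is read preferentially, and a cytosine still read as cytosine after bisulfite treatment counts as methylated. The flanks hold 192 annotated protein-coding genes, among them the homeobox genes Six4 and Six6, the AP-1 gene Fos and the growth factor gene Pgf.

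A differentially methylated position (DMP) was covered by more than 4 reads in both libraries and below 20 % methylated in one and above 80 % in the other. Positions that were methylated in wt and unmethylated in βerko MEFs are called hypomethylated, the reverse hypermethylated. The sequences below show 2 hypomethylated and 2 hypermethylated DMPs of the flanks, each among the 3 loci with the smallest p-values in its direction, because they are single positions with a strong change. The CpG of the DMP is in capitals, and all are the plus strand of NCBIM37, 5′ to 3′.
Hypomethylated, intron of Rtn1, chr12:73452356-73452437: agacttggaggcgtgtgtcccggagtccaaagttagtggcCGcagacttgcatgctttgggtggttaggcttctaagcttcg
Hypomethylated, upstream of 3830431G21Rik, chr12:81793461-81793542: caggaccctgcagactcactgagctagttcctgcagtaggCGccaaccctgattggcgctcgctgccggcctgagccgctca
Hypermethylated, exon of Gm1568, chr12:81860841-81860922: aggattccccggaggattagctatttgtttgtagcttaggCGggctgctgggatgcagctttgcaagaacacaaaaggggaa
Hypermethylated, distal to Lin52, chr12:85882863-85882944: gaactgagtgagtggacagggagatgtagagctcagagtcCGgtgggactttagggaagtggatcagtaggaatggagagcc

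The next sequence shows part of the largest group of neighbouring hypomethylated DMPs, because in it many CpGs of one stretch differed together. Capitals mark the CpGs at which a DMP was found.
Coding sequence of Tmem30b, central 200 bases, chr12:74646980-74647179: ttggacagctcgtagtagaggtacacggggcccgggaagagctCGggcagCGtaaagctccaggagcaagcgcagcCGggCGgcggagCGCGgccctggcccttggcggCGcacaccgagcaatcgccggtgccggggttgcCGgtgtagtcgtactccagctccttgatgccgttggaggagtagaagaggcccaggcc

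Across the flanks, 93 positions were hypomethylated and 17 hypermethylated in βerko MEFs. The hypomethylated share was 1.11 % (95 % Wilson confidence interval 0.907 to 1.36 %), where 0.700 % of all positions of the series met the same criterion, and 0.953 % did on the rest of chromosome 12 (0.842 to 1.08 %). The hypermethylated share was 0.203 % (0.127 to 0.325 %), against 0.237 % of all positions and 0.296 % on the rest of the chromosome. A two-sided Fisher's exact test of the reads passed at 88 of the 93 hypomethylated DMPs (1.05 % of the flank positions) and at all 17 hypermethylated DMPs. In the whole series, the DMPs that passed made up 0.642 % and 0.212 % of all positions. Only DMPs were tested, and the same reads had selected them for a large difference. Whether a DMP passed therefore followed mainly from its read numbers, and a pass is no separate support. Its p-values were adjusted by the Benjamini-Hochberg method over all 826937 positions. Neighbouring positions often share reads, and PCR copies of 1 molecule were not told apart, so that the intervals and tests cover counting error only and treat positions and reads as independent. The hypomethylated DMPs of the flanks formed 43 runs with gaps of at most 500 bp, and the hypermethylated ones 15.

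The excess of hypomethylated DMPs over the rest of chromosome 12 depended on how the bins were counted. Without the 1-Mb bin with the most of them, 0.866 % of the flank positions were hypomethylated, below the 0.953 % of the rest of the chromosome. The rest kept all its bins, including that with 23 hypomethylated DMPs. Leaving out such a bin from the flanks alone lowers their share, so these 2 shares are not a like comparison. Only positions above 80 % in wt MEFs could be hypomethylated. Of those, 3.79 % were hypomethylated in the flanks and 2.85 % on the rest of the chromosome. Without the flank bin with the most DMPs, the flank value was 2.87 %. With each 1-Mb bin of at least 50 positions counted equally, the share of all positions averaged 1.05 % in the flanks and 1.43 % on the rest. The average of the rest includes a bin of 55 positions with a share of 29.1 %. The median share of these bins went the other way, with 0.798 % in the flanks and 0.486 % on the rest of the chromosome. With 1 library per genotype, a difference between parts of one chromosome could not be set against a spread between cultures, and these shares are descriptions.

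Over the 8375 positions, wt MEFs averaged 35.6 % and βerko MEFs 33.6 % methylation, lower by 2.03 percentage points in βerko. On the rest of chromosome 12 the means were 43.3 and 41.4 %, a difference of -1.82 points, and on all other autosomes 40.6 and 38.7 %, a difference of -1.90 points. The flanks were thus less methylated than the rest of the chromosome in both cell types, while the difference between the cell types was of similar size. Below 20 % methylation lay 57.2 % of the flank positions in wt and 60.6 % in βerko MEFs. Above 80 % lay 29.3 and 28.1 %. In both libraries 4612 positions were below 20 % and 1989 above 80 %, and 85.0 % of the positions differed by less than 20 points. Across the 8375 positions, which share libraries and base composition, Pearson's r between wt and βerko was 0.903, compared with 0.882 on the rest of the chromosome.

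The sides of the gene differed in the number of DMPs, and most hypomethylated ones of the lower side lay in 2 adjoining bins of 1 Mb. On the side of lower coordinates, 61 of 3399 positions were hypomethylated (1.79 %, 1.4 to 2.30 %) and 3 hypermethylated (0.0883 %). On the side of higher coordinates, 32 of 4976 positions were hypomethylated (0.643 %, 0.456 to 0.906 %) and 14 hypermethylated (0.281 %). Of the positions above 80 % in wt MEFs, 6.44 % were hypomethylated on the lower and 2.12 % on the higher side, against 2.85 % on the rest of chromosome 12. On average the lower side differed by -2.96 points and the higher side by -1.39 points. Without the 2 bins with the most hypomethylated DMPs, a setting chosen after seeing the data, the lower side held 13 among 2355 positions (0.552 %, 0.323 to 0.942 %), which is below the share of the higher side. It then held 0 hypermethylated DMPs, and 1.93 % of its positions above 80 % in wt MEFs were hypomethylated. Its mean difference was -1.05 points. The contrasts with the higher side in the hypomethylated shares and in the mean difference thus turned. The higher side kept all its bins, including that with 12 hypomethylated DMPs, so bins were left out on the lower side only.

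The hypomethylated DMPs did not thin out evenly with the distance from Esr2. Within 1 Mb of the centre, 16 of 1135 positions were hypomethylated (1.41 %, 0.870 to 2.28 %), and between 2 and 5 Mb 60 of 2934 (2.04 %, 1.59 to 2.62 %). Between 1 and 2 Mb it was 0 of 208, which allows a share of up to 1.44 %. Beyond 5 Mb it was 17 of 4098 (0.415 %, 0.259 to 0.663 %). Most DMPs between 2 and 5 Mb came from the same 2 bins, and without them 12 of 1890 positions were hypomethylated (0.635 %, 0.364 to 1.11 %). The share within 1 Mb, from which no bin was left out, was higher. Of its 16 DMPs, however, 6 lay in 193 bp at Gm70 and 3 in 33 bp upstream of Rab15. These are not independent, so that the shares within 1 Mb and between 2 and 5 Mb are not a like comparison. The covered positions next to the left-out interval had the same state in both cell types. On the lower side, 77211275 was 100 % methylated in both, and on the higher side 77285406 was 95.5 % methylated in wt and 90.5 % in βerko MEFs.

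Split into 20 bins of 1 Mb, 14 bins held more hypomethylated than hypermethylated DMPs, 3 held more hypermethylated ones and 3 had equal numbers. The most hypomethylated DMPs, 26, fell into the bin at chr12:73249826-74249825, which contains Rtn1, Dhrs7 and Six6. There 4.08 % of 638 positions were hypomethylated (2.80 to 5.90 %), and of the 120 positions above 80 % in wt MEFs 21.7 % were. The adjoining bin at chr12:74249826-75249825, with Tmem30b, Prkch and Hif1a, held 22 hypomethylated DMPs among 406 positions, or 5.42 % (3.61 to 8.07 %). Together these bins held 48 of the 93 hypomethylated DMPs (51.6 %). The bin that starts at the gene, chr12:77249826-78249825, held 12, and each of the others 6 or fewer. In 5 bins there was none, with 3 counts allowing between 0.701 % and 4.76 % at their numbers of positions.

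Mean methylation was lower in βerko MEFs in 17 of the 20 bins. The largest difference was in the Tmem30b bin, with 49.5 % in wt and 38.9 % in βerko MEFs, or -10.7 points. The largest difference in the other direction was in the bin at chr12:68249826-69249825, with 23.9 % in wt and 33.6 % in βerko MEFs over 66 positions. Most of these lay at the start of Mdga2, which codes for a membrane-anchored adhesion protein of neurons. Within 2 kb of that start, 49 positions averaged 6.32 % (wt) and 18.4 % (βerko), 40 were higher and 8 lower in βerko MEFs, and none was a DMP. Deeper in Mdga2 the direction was the reverse. There 25 positions averaged 82.8 % in wt and 64.2 % in βerko MEFs, with 5 higher, 17 lower and 1 hypomethylated DMP. The most hypermethylated DMPs, 6, lay in the bin at chr12:81249826-82249825, which contains Gm1568 and the start of Smoc1. Its mean was 27.0 % in wt and 28.3 % in βerko MEFs.

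On the rest of chromosome 12, 79 bins held at least 50 positions. None of them had as many hypomethylated DMPs as the Rtn1 bin, the highest number being 23, and 6 had a share at least as large as in the Tmem30b bin, up to 29.1 % of 55 positions. A mean difference as low as that of the Tmem30b bin was found in 5 of them, and one as high as that of the Mdga2 bin in 2. None had as many as 6 hypermethylated DMPs, but their hypermethylated shares reached 2.99 %. In the flanks the highest was 0.788 %, in the bin of 761 positions with those 6. Among bins of at least 50 positions, those with the most DMPs of each kind lay in the flanks. Those with the largest shares of DMPs of either kind or the largest mean differences did not.

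**Figure D1:**
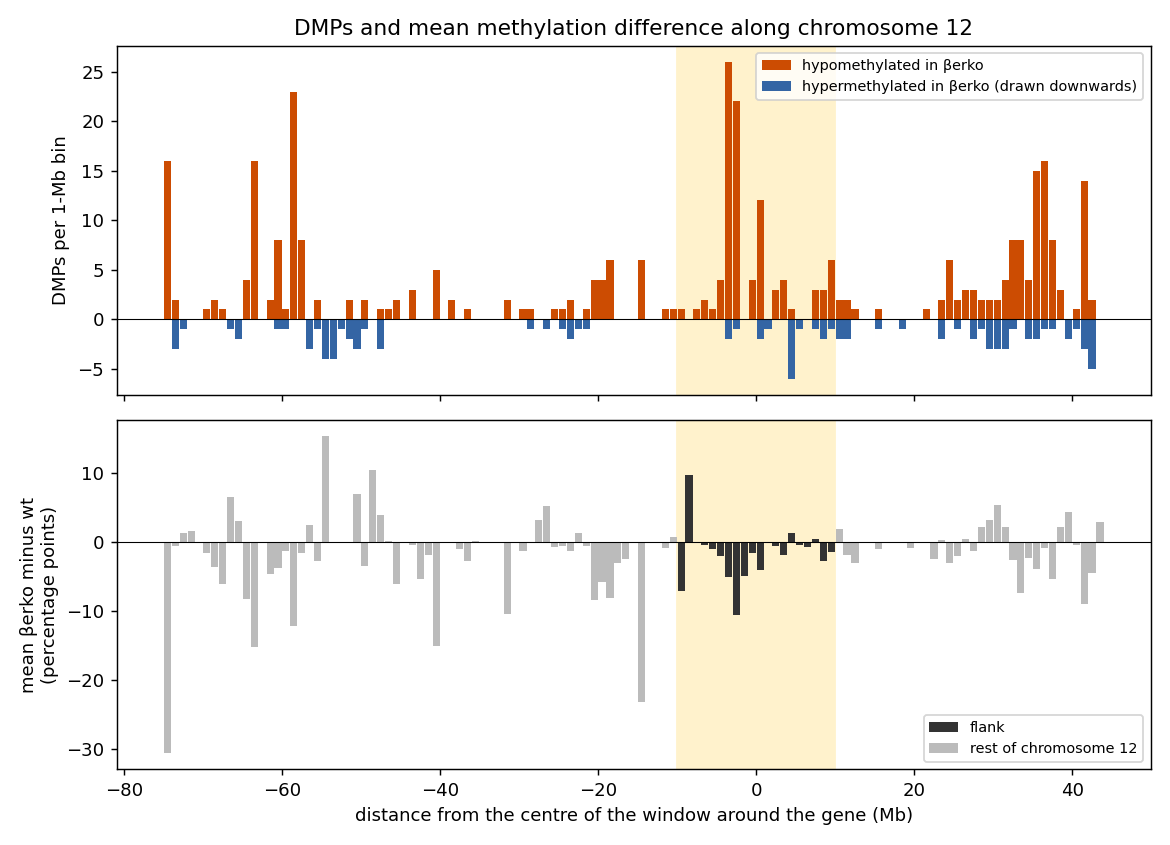
DMPs per 1-Mb bin of chromosome 12 (upper panel, hypermethylated ones drawn downwards) and the mean difference of βerko minus wt MEFs in percentage points for bins with at least 50 positions (lower panel), against the distance from the centre of the window in Mb, with the flanks shaded. The bins with 26 and 22 hypomethylated DMPs stand on the lower side of the gene, and bins with mean differences down to -30.7 points lie outside the flanks.

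Among the hypomethylated DMPs, 6 clusters were found, a cluster being 3 or more DMPs no further than 100 bp apart. The largest lay in Tmem30b, a gene for an accessory subunit of lipid flippases (minus strand, chr12:74644101-74647382). All of its 18 DMPs were in the coding sequence, 16 of them in 290 bp (chr12:74646935-74647224). In that cluster 36 positions were covered, with means of 83.9 % in wt and 18.9 % in βerko MEFs. The test passed at 14 of the 16 DMPs. The 2 others, at 74647068 and 74647200, had 11 and 9 reads in βerko MEFs. Over the whole gene with 2 kb upstream, the means of 67 positions were 75.3 and 24.3 %, the largest negative difference among all 165 genes with at least 10 covered positions, and 43 of them were lower by at least 50 points. Not every CpG differed. The position at 74647152, inside the cluster, was 100 % methylated in both libraries. The 10 promoter positions averaged 48.0 % in wt and 16.4 % in βerko MEFs.

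**Figure D2:**
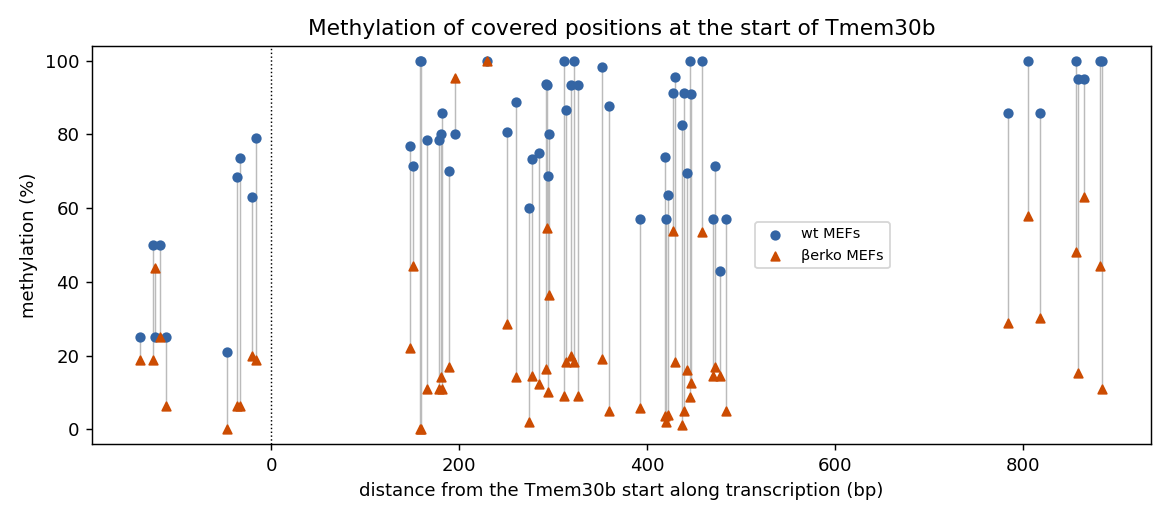
Methylation in percent of each covered position at the start of Tmem30b by distance from the gene start in bp (dotted line), for wt (circles) and βerko MEFs (triangles) joined per position. Nearly all positions are lower in βerko MEFs, with exceptions such as the position at 100 % in both.

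Of the other clusters, 2 were at gene starts close to Esr2. At Gm70 (Ppp1r36 in RefSeq, a regulatory subunit of protein phosphatase), 6 DMPs lay from 98 bp before to 94 bp after the start (chr12:77518488-77518680). The 14 positions covered there averaged 79.9 % in wt and 22.3 % in βerko MEFs, and all 14 were lower in βerko. The 4 positions deeper in the gene averaged 90.7 and 95.2 %. At Rab15, a GTPase of endosomes whose gene lies inside Fntb, that of the β subunit of farnesyltransferase, 3 DMPs lay in 33 bp (chr12:77923938-77923970). They are upstream of Rab15 and inside an intron of Fntb, so that they count for both genes. They averaged 89.7 % in wt and 12.5 % in βerko MEFs, while Rab15 itself averaged 14.6 and 1.52 % over 21 positions. All 9 DMPs of these clusters passed the test.

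Single hypomethylated DMPs included several with deep coverage. The DMP in an intron of Rtn1, a reticulon gene of the endoplasmic reticulum, was methylated in 84.7 % of 85 wt reads and 0 % of 63 βerko reads (Fisher's exact test, adjusted p = 9.04e-26). The DMP 76 bp upstream of 3830431G21Rik (Plekhd1 in RefSeq) stood at 84.3 % of 89 reads and 7.29 % of 96 reads (exact test, adjusted p = 2.85e-25). In the coding sequence of Mgat2, an enzyme of N-glycan synthesis, neighbouring DMPs at 70286180 and 70286192 stood at 90.3 and 95.2 % in wt and 7.14 and 11.2 % in βerko MEFs. In the coding sequence of Six6, a homeobox gene of eye and pituitary that 4930447C04Rik overlaps, the position 74041537 was methylated in 87.0 % of 77 wt reads and 5.19 % of 77 βerko reads. The DMP 37638 bp from Rps29 (95.9 and 18.2 %) and that in an intron of Dhrs7 (83.8 and 5.06 %) were also among the 8 loci with the smallest p-values.

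The hypermethylated DMPs were less grouped by these counts. The 17 formed 15 runs and none lay in a cluster, whereas 44 of the 93 hypomethylated DMPs did (47.3 %, against 37.5 % on the rest of chromosome 12). On the rest, 9.09 % of the hypermethylated DMPs did. Other covered CpGs within 100 bp existed for 13 of the 17, and at 8 of these the neighbours differed by less than 20 points on average. At 5 they were higher in βerko MEFs by 20 points or more, and on the rest of chromosome 12 at 29 of 47. At hypomethylated DMPs with such neighbours, 67 of 84 had neighbours that were lower in βerko MEFs by 20 points or more. On the rest of the chromosome 169 of 213 did, and DMPs of 1 cluster are each counted. In an exon of Gm1568 (Ccdc177 in RefSeq), the DMP stood at 15.9 % of 69 wt reads and 100 % of 49 βerko reads. Next in order of p were a position 10420 bp from Lin52 (11.1 and 90.7 %), one 548 bp before the start of Prkch (10.7 and 87.5 %), one 138244 bp from Fut8 (6.67 and 93.5 %), one in Smoc1, one in an intron of Spnb1 (13.3 and 89.5 %) and one 35051 bp from 4930447C04Rik (13.3 and 81.1 %).

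Smoc1 was the one gene of the flanks with several hypermethylated DMPs. It codes for a secreted calcium-binding protein of basement membranes (plus strand, chr12:82127795-82287401), and its 58 positions had means of 42.7 % (wt) and 66.2 % (βerko), the largest positive difference among the 165 genes. Its 4 DMPs lay in introns. The DMP at 82129221 was methylated in 8.16 % of 49 wt reads and 93.3 % of 30 βerko reads. At 82129378 and 82129388, 10 bp apart, methylation rose from 0 % to 91.7 and 83.3 %, and the position 82129383 between them stood at 0 % in wt and 75 % in βerko MEFs. These and the DMP at 82143786 had 14 to 16 reads in wt and 10 to 12 in βerko MEFs, and all 4 passed the test. Of the 44 positions in the gene 40 were higher in βerko MEFs and 3 lower. The 14 positions upstream of the start averaged 44.2 and 42.7 %, with 6 higher and 6 lower, and among them the position 103 bp before the start went the other way, with 80 % in wt and 6.25 % in βerko MEFs.

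Pgf, the gene of placental growth factor, an angiogenic factor of the VEGF family (minus strand, chr12:86507589-86518246), showed the reverse. Its 10 promoter positions averaged 58.9 % in wt and 15.5 % in βerko MEFs. The 3 DMPs, 138 and 120 bp before and 112 bp after the start, passed the test, with 7 to 21 reads in wt and 29 to 45 reads in βerko MEFs. The 5 positions deeper in the gene averaged 73.5 and 71.8 %. Ltbp2, which codes for a latent TGF-β binding protein of the matrix, had no DMP and averaged 61.2 and 58.8 % over 105 positions.

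**Figure D3:**
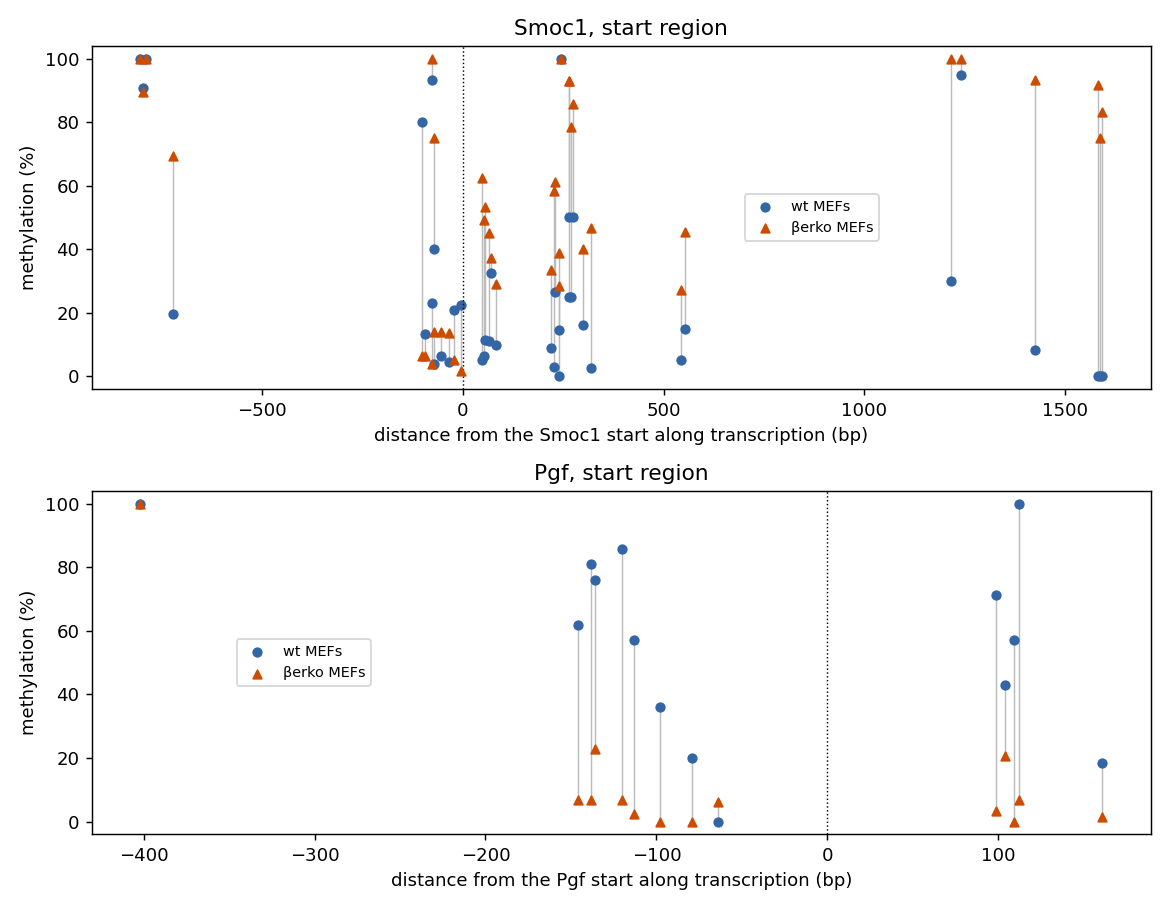
Methylation in percent of each covered position around the starts of Smoc1 (upper panel) and Pgf (lower panel) by distance from the gene start in bp, for wt (circles) and βerko MEFs (triangles). Behind the Smoc1 start βerko values mostly lie above wt values, as at +1426 bp with 8.16 and 93.3 %, and around the Pgf start they lie below, except at -402 bp with 100 % in both and at -64 bp.

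Genes close to Esr2 were not alike. Within 0.813 Mb of the centre, the distance of the farthest listed neighbour, 18 genes had at least 10 covered positions. Their median difference was -1.51 points, beside -0.344 points over the 165 genes. A lower mean in βerko MEFs was found in 15 of the 18, beside 64.2 % of the 165 genes. A hypomethylated DMP was held by 7, beside 19.4 % of the 165, with DMPs shared by overlapping genes counted for each. Lower by at least 5 points were 6 of the 18, beside 33 of the 165. Among the 6 were Gm70, Rab15 and Fntb (44.1 and 31.8 %). These 3 are not among the 9 listed neighbours, of which 7 had a lower and 2 a higher mean in βerko MEFs with a median difference of -0.293 points, so that the smaller median rests on the choice of genes. The list held 4 hypomethylated DMPs among 835 positions (0.479 %), those shared by neighbouring genes being counted for each, beside 1.11 % of all flank positions. The starts of Zbtb25 and Zbtb1, which code for zinc finger factors and share positions, and of Max, the partner of Myc, were unmethylated in both cell types (at most 0.210 % on average over their promoter positions). Sgpp1, a sphingosine phosphate phosphatase, averaged 1.12 and 0.792 % over 64 positions. Syne2, which codes for a giant protein of the nuclear envelope and ends next to Esr2, averaged 1.41 and 1.72 % within 2 kb of its start and 93.2 and 87.6 % beyond, with 2 hypomethylated DMPs in introns. Mthfd1, an enzyme of folate metabolism, had 1 hypomethylated DMP 462 bp before its start (96.8 % of 31 reads and 13.2 % of 38 reads), and its means were 64.1 and 64.4 %. Spnb1 (Sptb in RefSeq, erythrocyte β-spectrin) had 1 DMP of each kind and means of 54.7 and 54.8 %, in which opposite differences cancelled. Within 2 kb of its start, 68 positions averaged 23.8 % in wt and 15.8 % in βerko MEFs, with 45 lower and 15 higher. Deeper in the gene, 75 positions averaged 82.7 and 90.2 %, with 49 higher and 18 lower. The lowest differences of the list were at Akap5, a kinase anchor protein, with 77.7 and 66.8 %, and at Hspa2, a heat shock protein of germ cells, with 58.8 and 50.7 %, both without a DMP.

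Among the 7 developmental regulators, 6 had a lower mean in βerko MEFs, beside 106 of the 165 genes (64.2 %), and the median difference was -6.03 points, beside -0.344. Of their 439 positions 4 were hypomethylated DMPs, in 3 of the genes, and this share of 0.911 % was below the 1.11 % of all flank positions. Zfp36l1, which codes for an RNA-binding protein in mRNA decay, averaged 15.4 % in wt and 0.756 % in βerko MEFs over 30 positions. Its 2 DMPs, 879 and 881 bp before the start, were at 91.7 and 92.3 % in wt and 0 % in βerko MEFs, with 12 to 16 reads. The 4 positions in the gene were at 0 % in both. Six4 averaged 3.19 and 2.84 %. Dact1, a Wnt pathway antagonist, was the one with a higher mean in βerko MEFs, 49.6 and 50.5 %. Prox2 had 9 covered positions with 84.2 and 75.1 %.

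The 4 AP-1 and hypoxia factors held 0 DMPs in 185 positions, which allows a share of up to 1.62 %, so that a share like that of the flanks would not have been detectable. Hif1a, the oxygen-regulated transcription factor, averaged 0.251 and 0.204 % over 53 positions. Fos averaged 11.5 and 10.6 % and Jdp2, its dimerisation relative, 28.5 and 28.6 %. Batf, an AP-1 factor of lymphocytes, was higher in βerko MEFs, with 53.6 % in wt and 61.8 % in βerko over 18 positions. Its 5 promoter positions averaged 76.8 and 95.4 %.

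The 10 signalling and cytoskeleton genes split evenly, 5 with a lower and 5 with a higher mean in βerko MEFs, with differences between -4.78 points (Daam1, a formin of Wnt signalling) and 3.03 points (Actn1, α-actinin). They held 3 hypomethylated DMPs among 765 positions (0.392 %, beside 1.11 % of all flank positions), among them 1 in an intron of Daam1 and 1 in an exon of Numb, an inhibitor of Notch. At Daam1 the values were 87.5 % of 24 wt reads and 8.70 % of 46 βerko reads. At Numb they were 100 % of 13 reads and 9.52 % of 42 reads. The hypermethylated DMP of this list was that before Prkch, which codes for protein kinase C eta. Promoters of the list had little methylation, at most 7.14 % on average in wt MEFs.

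**Figure D4:**
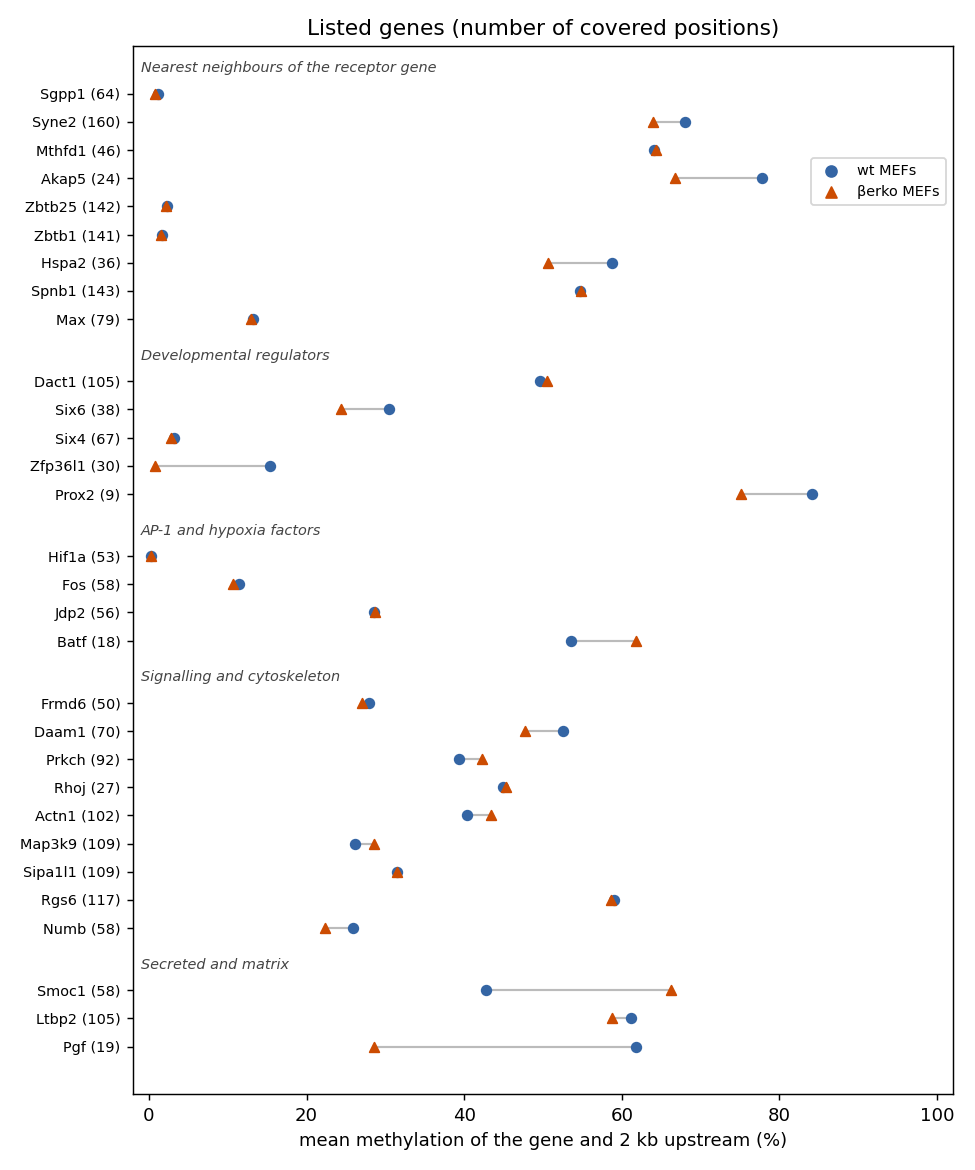
Mean methylation in percent of the listed genes described here with 2 kb upstream in wt (circles) and βerko MEFs (triangles), with the number of covered positions in brackets. Among those apart by more than 5 points, Pgf, Zfp36l1, Akap5, Prox2, Hspa2 and Six6 are lower in βerko MEFs, and Smoc1 and Batf are higher.

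Of the 165 genes with at least 10 covered positions, 106 had a lower and 59 a higher mean in βerko MEFs. At least 5 points lower were 33, and at least 5 points higher were 4. A hypomethylated DMP was found in 32 of these genes, a hypermethylated one in 8 and both in 3. Overlapping gene entries share positions and DMPs, which are counted for each, so that the genes are not independent. After Tmem30b, Gm70 (87.4 and 52.6 %) and Pgf (61.9 and 28.6 %), the largest negative differences were at 4930512B01Rik (33.3 and 4.03 %), Rab15 (29.0 and 5.38 %) and the lincRNA gene Gm15283 (80.8 and 59.8 %). After Smoc1, the largest positive differences were at Fam71d (58.4 and 70.1 %), Batf, Mlh3, a DNA mismatch repair gene (48.5 and 56.4 %), Gm17673 (90.2 and 94.9 %) and Arg2, the mitochondrial arginase (8.43 and 12.9 %).

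By position relative to genes, 16 of the 93 hypomethylated DMPs lay in promoters (17.2 %), 24 in other exons, 18 in introns and 35 between genes. On the rest of chromosome 12, 8.47 % of them lay in promoters. Promoter positions made up 31.6 % of the flank positions and were methylated at 7.51 % in wt and 5.35 % in βerko MEFs on average. Of the 85 promoter positions that were above 80 % in wt MEFs, 18.8 % were hypomethylated, compared with 5.82 % of 361 on the rest of the chromosome. The 16 DMPs come from 8 gene starts, with 6 at Gm70 alone, so that they are not independent. Of the 17 hypermethylated DMPs, 0 lay in promoters, 2 in exons, 7 in introns and 8 between genes.

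The CpGs around the DMPs differed in density. In NCBIM37, a hypomethylated DMP of the flanks had a median of 8 other CpGs within 100 bp and a hypermethylated one 5. All covered flank positions had a median of 15, those above 80 % in wt MEFs 5 and those below 20 % in wt MEFs 21. The site of MspI held the CpG of 44.1 % of the hypomethylated and 58.8 % of the hypermethylated DMPs, and of 37.6 % of all flank positions. In the authors' annotation no DMP of the flanks was assigned to a repeat. Both strands of the CpG were covered at 10 hypomethylated DMPs, and at 6 of them the other strand was a hypomethylated DMP as well. At 19 of the 93 hypomethylated DMPs no methylated read was seen in βerko MEFs (20.4 %), against 8.87 % on the rest of the chromosome. Most of these 19 lay at a few loci of neighbouring CpGs, so that they are not independent.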

How the data were processed

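Genomic DNA of wt and βerko MEFs was cut with MspI, and gel-selected fragments were treated with bisulfite, amplified and sequenced by the authors, who used the Genomatix Mining Station for mapping (version not given in the sources used here). The submitters' processing notes name CASAVA 1.4 and mm9. For cytosines read in both cell types the authors deposited percent methylation with no coverage, and for DMPs also the read counts. Coverage at other positions was not used here. All 34423 positions on chromosome 12 were CpG cytosines of NCBIM37, and the percentages of all 8071 deposited DMPs corresponded to whole reads within 0.005 points.

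Coverage at the hypomethylated DMPs of the flanks ranged from 6 to 89 reads in wt and 5 to 113 in βerko MEFs (medians 26 and 49), and at hypermethylated DMPs from 14 to 81 and 10 to 60 (medians 43 and 31). Bins of 1 Mb were counted from the start of the window. Genes and features came from GENCODE vM1 on NCBIM37. A promoter was 500 bp before to 100 bp after a transcript start, and a gene's mean covered the gene and 2 kb upstream. Fisher's exact tests were two-sided, with untested positions at a p-value of 1 and a threshold of 0.05. Named were the 8 loci of each direction with the smallest p-values, 1 per 500 bp, every cluster, the 6 largest falls and rises in gene means, the bins with extreme values and 5 gene lists. Some items that these rules name are not reported here, although the counts include them. Other positions and Mdga2, named for comparison, were chosen after their values were seen. The flanks, lists and rules were chosen with earlier results of these data known. RefSeq names were matched by synonym. The procedures were tested on simulated data. Python 3.11.15, NumPy 2.4.6, pandas 2.3.3, SciPy 1.17.1 and matplotlib 3.10.9 were used.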

Additional observations from a re-analysis of the deposited data

How the results depend on the processing

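Across 72 alternative values, 41 stayed close to the reported value, 22 moved further and 9 changed sign. Close meant within 1.5 times the value or within its confidence interval. For differences in share between the flanks and the rest, it meant within the half-width of the flank share's interval. By that rule the difference in the hypermethylated share, -0.0930 points, counted as close at -0.0261 (all other autosomes) and -0.0154 points (5 Mb on each side). Of the changes of sign, 6 concern the flanks minus the rest of chromosome 12. The difference in the hypomethylated share, 0.157 points, became -0.0873 without the bin with the most DMPs, -0.387 with bins weighted equally and -0.339 without the 2 bins with the most DMPs, a setting chosen after seeing the data. The difference in mean methylation, -0.204 points, became 0.0486, 0.288 and 0.542 points. Where bins were left out, they were left out of the flanks only. The median hypomethylated share of the equally weighted bins was higher in the flanks, 0.798 %, than on the rest, 0.486 %. Against all other autosomes these differences were 0.434 and -0.126 points, and with 5 Mb on each side 0.824 and -1.04 points.

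With the main settings, 3.79 % of the flank positions above 80 % in wt MEFs were lost. With thresholds of 10 and 90 %, 36 DMPs were hypomethylated (0.430 %) and 3 hypermethylated (0.0358 %), and 1.80 % of the positions above 90 % in wt MEFs were lost. With 1 DMP per run, 43 hypomethylated ones remained. With 5 Mb on each side, the hypomethylated share was 1.78 % of all and 5.81 % of the positions above 80 % in wt. With 2 Mb on each side there were 16 hypomethylated and 3 hypermethylated DMPs, and 3.10 % of the positions above 80 % were lost. Without the bin with the most DMPs these shares were 0.866 % and 2.87 %. Without the 2 bins, 45 hypomethylated DMPs remained, or 0.614 %, and the mean difference was -1.28 points. In that setting the hypomethylated share was 0.552 % on the lower side and 0.635 % between 2 and 5 Mb. The lower minus the higher side changed from 1.15 to -0.0911 points in the share of all positions, from 4.32 to -0.195 points in that of positions above 80 % in wt, and from -1.57 to 0.336 points in the mean difference. In that contrast bins were left out on the lower side only. For settings with fewer positions or stricter thresholds, the smaller number follows from the setting. The cause of the other changes was not tested.

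No paired analysis was possible because each genotype had 1 library, so that neither library was left out. Coverage was used at DMPs only, so that shares under another coverage minimum keep the same denominator. The strain of the cells in which the allele was made is not given in the labels, and sequence differences linked to the allele were not tested.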

Other observations

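In the interval of the targeted gene, which the counts above leave out, 33 positions were covered. They averaged 55.3 % in wt and 46.4 % in βerko MEFs, and 2 were hypomethylated and 0 hypermethylated. Among them, 11 were below 20 % in both libraries and 9 above 80 % in both. With these positions included, the flanks held 95 hypomethylated DMPs, or 1.13 % of the positions.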
